A study of Mus musculus with 6 samples.

Results

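Pericytes and vascular smooth muscle cells, together called mural cells, were followed through 10 marker genes in the cortex of mice given AAV-GFP-GA or AAV-GFP. The genes were Pdgfrb, Rgs5, Vtn, Abcc9, Kcnj8 and Higd1b for pericytes, and Acta2, Myh11, Tagln and Des for smooth muscle. The smooth muscle genes are called contractile here, although Des encodes an intermediate filament protein. Both sets were picked as known markers and matched by gene symbol in a table of 18283 genes. All 10 were found, and all 10 were among the 14324 genes with enough reads to be tested. AAV is an adeno-associated viral vector. AAV-GFP-GA carries green fluorescent protein fused to poly-GA, a glycine-alanine dipeptide repeat protein made from the C9orf72 repeat expansion, and AAV-GFP carries the fluorescent protein alone. Each group had 3 libraries of total cortex RNA, and every sample was labelled WT with a time of 5 months. Both groups therefore share the wild-type genotype, a vector and GFP. The promoter and serotype of the vector, the animals' age at injection and the number of animals per library were not given in the sources used here. The p-values measure the spread between these libraries.

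Mural cells sit on the outer wall of brain vessels. Endothelial cells secrete PDGF-B, which binds PDGFRB on pericytes and holds them on capillaries. Contractile smooth muscle cells wrap arterioles and set their width, and their actin and myosin genes are controlled largely by serum response factor, which binds the CArG box, with its cofactor myocardin. The KATP channel of mural cells, built from Kcnj8 and Abcc9, couples their metabolism to membrane potential. In bulk tissue, fewer cells of a type and less RNA per cell cannot be told apart.

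The libraries held 17548304, 17576017 and 17493438 expected counts in AAV-GFP-GA and 16748754, 16761637 and 17237278 in AAV-GFP. The 11 markers of cortical neurons and glia summed to between 8051 and 8399 CPM, reads scaled to the size of the library, in AAV-GFP-GA libraries and between 8014 and 8299 CPM in AAV-GFP libraries. Some libraries stood apart. A list of 19 intestinal epithelium genes had 243, 259 and 355 reads in AAV-GFP-GA, against 102, 78 and 257 in AAV-GFP, and 1 of these 19 genes, Cdx1, was at 0 in every library. AAV-GFP replicate 3 also had 1 read over 4 Y-linked genes, whereas the other 5 libraries had between 2018 and 2270. By these reads that library differs in sex from the other 5, although the labels give no sex. The choroid plexus list ranged in sum between 16.7 and 62.3 CPM in AAV-GFP-GA and between 39.9 and 113.5 CPM in AAV-GFP. The part of these differences in the results on mural genes was not tested. AAV-GFP replicates 1 and 2 had the fewest intestinal reads. A fit with a term for them sets the 3 AAV-GFP-GA libraries against AAV-GFP replicate 3 alone. Such a fit cannot separate the groups from that 1 library, nor from its difference in Y-linked reads.

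The promoter of Acta2, which encodes smooth muscle actin, is a textbook target of serum response factor, so its CArG boxes are shown beside the promoter of Des, the gene for the intermediate filament protein desmin. Both come from the RefSeq table for GRCm38.p6, the build also called mm10, which held promoters for 6 of the 10 genes. A promoter there is counted from an annotated start site, 1 for each of these 6 genes. For Acta2 this site, base 34255373, lies 212 bases inside the outer boundary of the gene in the RefSeq gene table, base 34255585, so both boxes lie within the gene as given there. For Abcc9 it lies 492 bases inside, and for the other 4 genes both tables give the same start. In the 250 bases before the start so defined, Acta2 had 2 CArG boxes, 84 and 34 bases before it. Neither was exact, since each had 1 core letter other than A or T. The 30-base stretches below, at chr19:34255438-34255467 and chr19:34255388-34255417 on the minus strand, show each box in capitals.
Acta2 distal box: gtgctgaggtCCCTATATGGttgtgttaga
Acta2 proximal box: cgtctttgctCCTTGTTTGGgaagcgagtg
The 250 bases before Des, chr1:75360042-75360291 on the plus strand, had no CArG box of this kind and 1 E-box CAGCTG, in capitals, 36 bases before the start.
Des promoter: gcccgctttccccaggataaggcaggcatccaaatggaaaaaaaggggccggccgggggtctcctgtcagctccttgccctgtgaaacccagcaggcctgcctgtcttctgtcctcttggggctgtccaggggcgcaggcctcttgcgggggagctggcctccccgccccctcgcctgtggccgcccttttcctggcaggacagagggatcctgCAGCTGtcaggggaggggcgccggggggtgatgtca
Searched on both strands, CArG boxes with at most 1 such letter off occurred in 8.59% of 32851 promoter windows of this length and exact ones in 1.47%. CAGCTG, whose reverse complement is itself, occurred in 13% of them, including Acta2 and Abcc9. Rgs5, Vtn and Kcnj8 had neither motif in the window.

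No mural gene passed the test of AAV-GFP-GA against AAV-GFP. By edgeR's quasi-likelihood test, 0 of the 10 genes had an adjusted p under 0.05, beside 0.0209% of all genes tested, and DESeq2 and limma-voom also called 0. Before adjustment 2 genes, Vtn and Des, had p under 0.05, both higher in AAV-GFP-GA, where 3.19% of all genes were higher at that level. The same 2 genes were the ones whose groups did not overlap between libraries, beside 6.09% of all genes that did not overlap with AAV-GFP-GA higher. The fitted log2 fold change was above 0 for 8 genes and below 0 for Acta2 and Higd1b, where 48.6% of all genes were above 0. The median over the 10 genes was 0.19, beside -0.0039 over all genes tested. The 95% interval lay within 2-fold in either direction for 9 of the 10 genes, with Des the exception, and within 1.5-fold for 5. AAV-GFP-GA replicate 2 was the highest of the 6 libraries for 6 of the 10 genes. Without it the median log2 fold change of the 6 pericyte genes was 0.08 in place of 0.16, and that of the 4 contractile genes was 0.17 in place of 0.27.

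**Figure D1:**
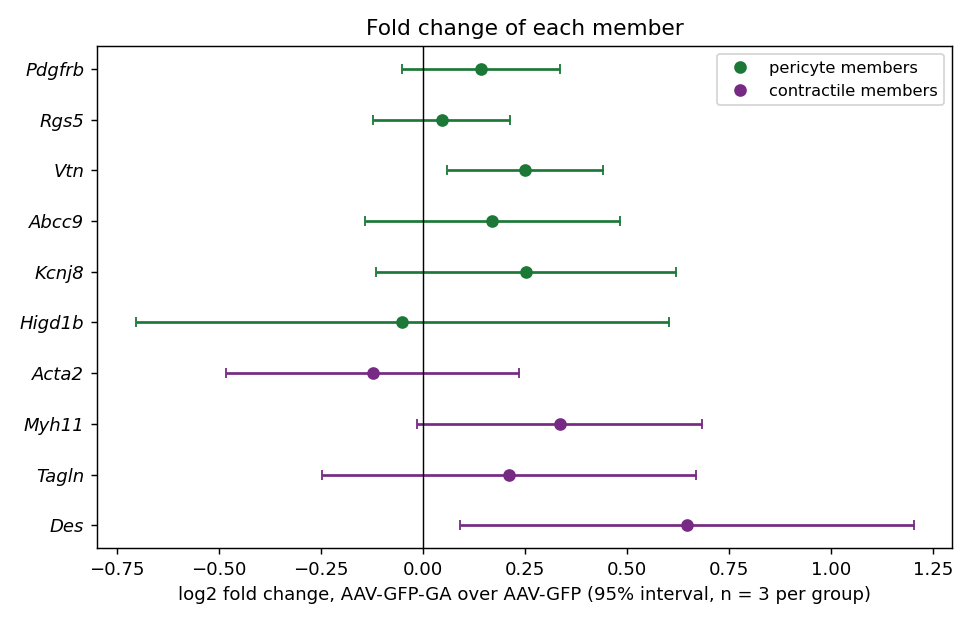
Log2 fold change of each mural gene, AAV-GFP-GA over AAV-GFP (horizontal axis), with its 95% interval (bars, n = 3 libraries per group), pericyte genes in green and contractile genes in purple. The intervals of Vtn and Des lie above 0, and the interval of Des is among the widest, reaching 1.2.

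Pdgfrb (gene ID 18596, chr18:61045127-61085067) encodes the receptor that pericytes need for recruitment. It had 29.9, 26.5 and 28.7 CPM in AAV-GFP-GA replicates 1, 2 and 3, against 27.8, 23.3 and 26.0 CPM in AAV-GFP. The groups overlapped, with means of 28.4 ± 1.69 CPM in AAV-GFP-GA and 25.7 ± 2.24 CPM in AAV-GFP (SD, n = 3 each). The fold change was 1.10 (95% interval 0.965 to 1.26, edgeR adjusted p = 0.751), and the log2 fold change was 0.14, or 0.08 without AAV-GFP replicate 2.

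Rgs5 (gene ID 19737, chr1:169655501-169695813), a regulator of G protein signalling that is among the most used pericyte markers, had 108, 135 and 123 CPM in AAV-GFP-GA and 121, 116 and 118 CPM in AAV-GFP. The AAV-GFP-GA libraries lay on both sides of the AAV-GFP libraries. Its fold change was 1.03 (0.919 to 1.16, edgeR adjusted p = 0.915), the narrowest interval of the 10 genes. Its log2 fold change was 0.05 ± 0.08 (SE) with all libraries, -0.03 when replicate 2 of AAV-GFP-GA was left out and 0.125 when replicate 1 of that group was. Higd1b (gene ID 75689, chr11:102835761-102844141), a mitochondrial hypoxia-inducible domain gene that marks brain pericytes, rested on only 21, 23 and 21 reads in AAV-GFP-GA and 15, 29 and 21 reads in AAV-GFP. Its fold change of 0.966 had an interval of 0.614 to 1.52 (edgeR adjusted p = 0.982), which is too wide to tell a modest change from none.

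Vtn (gene ID 22370, chr11:78499120-78502325) encodes vitronectin, an extracellular matrix protein that brain pericytes make and that integrins bind. It had 63.0, 69.2 and 73.0 CPM in AAV-GFP-GA, against 60.1, 50.6 and 61.7 CPM in AAV-GFP. All 3 AAV-GFP-GA libraries were above all 3 AAV-GFP libraries, though AAV-GFP-GA replicate 1 and AAV-GFP replicate 3 lay close together. The fold change was 1.19 (1.04 to 1.36, unadjusted p = 0.0149, edgeR adjusted p = 0.742). The liver also makes vitronectin. Of 10 liver markers 8 were in the table, Serpina1d was at 0 in every library, and only Ttr, also a choroid plexus gene, had enough reads to be tested, with means of 310 ± 247 CPM in AAV-GFP-GA and 580 ± 416 CPM in AAV-GFP. Alb had 0, 0 and 1 reads in AAV-GFP-GA and 0, 0 and 1 in AAV-GFP. Apob, which the intestine also makes, had 7, 12 and 18 reads in AAV-GFP-GA and 2, 1 and 5 in AAV-GFP. The 6 libraries stood in the same order for Apob as for Vtn. With so few reads, the order for Apob, and for Apoh, Cyp2e1 and Hpx below, is uncertain. Apoh had 3, 6 and 9 reads in AAV-GFP-GA and 4, 6 and 8 in AAV-GFP. Cyp2e1 had 3, 2 and 6 reads in AAV-GFP-GA and 6, 1 and 2 in AAV-GFP. Hpx had 3, 7 and 1 reads in AAV-GFP-GA and 6, 9 and 5 in AAV-GFP. The part of these genes in the result on Vtn was not tested. The log2 fold change of Vtn was 0.25 ± 0.09 (SE), and 0.17 without AAV-GFP replicate 2. Set against AAV-GFP replicate 3 alone it was 0.15 ± 0.11, where that lone library is assumed to vary like the others.

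The channel genes Abcc9 (gene ID 20928, chr6:142587862-142702766) and Kcnj8 (gene ID 16523, chr6:142564837-142571614) lie 16247 bases apart. Abcc9, the sulfonylurea receptor subunit, had 11.3, 17.4 and 14.4 CPM in AAV-GFP-GA and 12.5, 12.3 and 13.5 CPM in AAV-GFP. Kcnj8, the pore subunit, had 4.35, 5.30 and 4.21 CPM in AAV-GFP-GA and 3.65, 3.71 and 4.27 CPM in AAV-GFP. The groups overlapped for both subunits, and both were highest in AAV-GFP-GA replicate 2. The fold change was 1.13 (0.907 to 1.40, edgeR adjusted p = 0.804) for Abcc9. Its log2 fold change of 0.17 became 0.01 when AAV-GFP-GA replicate 2 was left out and 0.32 when replicate 1 was. It was 1.19 (0.923 to 1.54, edgeR adjusted p = 0.761) for Kcnj8, with a log2 fold change of 0.25, or 0.14 without AAV-GFP-GA replicate 2. The ratio of pore to receptor subunit was 0.384, 0.305 and 0.293 within AAV-GFP-GA libraries and 0.292, 0.302 and 0.316 within AAV-GFP libraries, so these overlapped too. An antisense gene shares up to 158 bases of exon with Abcc9, and its reads cannot be told apart without a known strand setting.

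**Figure D2:**
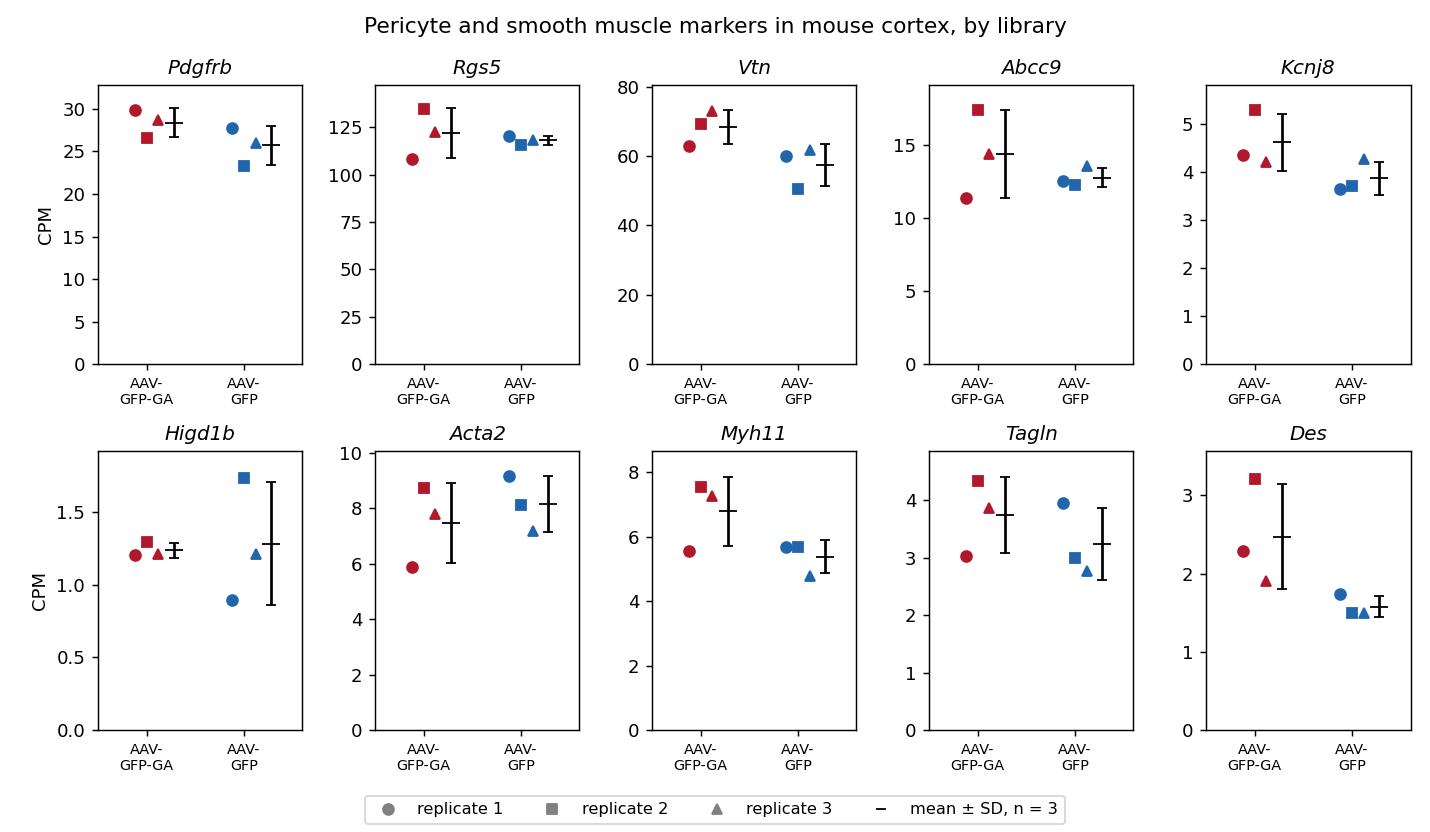
CPM of each mural gene (vertical axis, from 0) in each library, AAV-GFP-GA in red and AAV-GFP in blue, with symbols for the replicate and a bar for mean ± SD (n = 3). Vtn and Des separate the groups, with every AAV-GFP-GA library above every AAV-GFP library, and the other 8 genes overlap.

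None of the 4 contractile genes passed the test, and their fold changes differed in sign. Acta2 (gene ID 11475, chr19:34240336-34255585) had 5.90, 8.74 and 7.79 CPM in AAV-GFP-GA and 9.15, 8.13 and 7.16 CPM in AAV-GFP, with overlapping groups and a fold change of 0.918 (0.716 to 1.18, edgeR adjusted p = 0.883). Its log2 fold change, -0.12 with all libraries, depended on single libraries. Omitting replicate 1 of AAV-GFP-GA gave 0.02, replicate 2 of that group -0.25, replicate 1 of AAV-GFP -0.03 and replicate 3 of AAV-GFP -0.21. Myh11 (gene ID 17880, chr16:14194527-14292188), the smooth muscle myosin heavy chain, had 5.55, 7.55 and 7.27 CPM in AAV-GFP-GA and 5.68, 5.68 and 4.79 CPM in AAV-GFP. AAV-GFP-GA replicate 1 lay within the range of AAV-GFP, and the other 2 lay above it. The fold change of Myh11 was 1.26 (0.990 to 1.61, unadjusted p = 0.0582, edgeR adjusted p = 0.746).

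Tagln (gene ID 21345, chr9:45929628-45936058), which encodes the actin-binding protein SM22, had 3.03, 4.34 and 3.87 CPM in AAV-GFP-GA and 3.95, 2.99 and 2.77 CPM in AAV-GFP. The groups overlapped and the fold change was 1.16 (0.843 to 1.59, edgeR adjusted p = 0.839). It was the 1 member whose deposited values were not whole in any library, and it shares up to 404 bases of exon with the antisense gene Gm48529 and up to 94 with Pcsk7, both on the opposite strand, so their reads cannot be told apart without a strand setting. Its log2 fold change, 0.21 with all libraries, moved when 1 library was left out. Leaving out replicate 1 of AAV-GFP-GA gave 0.345, replicate 2 of that group 0.09, replicate 1 of AAV-GFP 0.38 and replicate 3 of AAV-GFP 0.11. Des (gene ID 13346, chr1:75360292-75368579) had 2.29, 3.21 and 1.90 CPM in AAV-GFP-GA, against 1.74, 1.49 and 1.5 CPM in AAV-GFP. Its lowest AAV-GFP-GA library was above its highest AAV-GFP library. These values rest on 40, 57 and 33 reads in AAV-GFP-GA and 29, 25 and 26 reads in AAV-GFP. The fold change of Des was 1.56 (1.06 to 2.30, unadjusted p = 0.0267, edgeR adjusted p = 0.742). Without AAV-GFP-GA replicate 2 its log2 fold change was 0.41, against 0.65 with all libraries. Striated muscle also makes desmin. Of 11 striated muscle markers 5 had enough reads to be tested, and the sum over all 11 ranged between 16.2 and 18.1 CPM in AAV-GFP-GA and between 14.1 and 17.15 CPM in AAV-GFP. Of the 5 tested, 2 had a log2 fold change above 0 and 3 below, with a median of -0.007. Acta1, for skeletal muscle actin, had 10.6, 9.3 and 8.6 CPM in AAV-GFP-GA and 7.78, 6.81 and 7.97 CPM in AAV-GFP. Its groups did not overlap (unadjusted p = 0.0227, edgeR adjusted p = 0.742), beside the 6.09% of all genes that separated with AAV-GFP-GA higher. Tnnt2, a troponin gene, had a log2 fold change of -0.05 ± 0.17 (SE). Mylpf had 4, 2 and 4 reads in AAV-GFP-GA and 4, 10 and 7 in AAV-GFP. Ckm had 0, 0 and 2 reads in AAV-GFP-GA and 0 in each AAV-GFP library. The part of these genes in the result on Des was not tested. An antisense gene shares up to 220 bases of exon with Des, and without a strand setting its reads cannot be told apart.

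Set against Acta2 within each library, the other contractile genes had a higher ratio in every AAV-GFP-GA library than in any AAV-GFP library. This ratio was chosen after the values were seen. Myh11 relative to Acta2 was 0.942, 0.865 and 0.933 in AAV-GFP-GA, against 0.621, 0.699 and 0.669 in AAV-GFP. Tagln relative to Acta2 was 0.515, 0.497 and 0.496 in AAV-GFP-GA, against 0.431, 0.368 and 0.387 in AAV-GFP. Des relative to Acta2 was 0.388, 0.368 and 0.244 in AAV-GFP-GA, against 0.190, 0.184 and 0.210 in AAV-GFP. No library of either group overlapped with the other in any of these 3 ratios, beside 2.83% of all genes whose ratio to Acta2 separated the groups with AAV-GFP-GA higher. The mean ratio was 1.38-fold higher for Myh11, 1.27-fold for Tagln and 1.72-fold for Des. No test is given, since the ratios were picked for this separation. The 3 ratios share Acta2, which was highest in AAV-GFP replicate 1 and lowest in AAV-GFP-GA replicate 1, so they are not independent. AAV-GFP replicate 1 was also the highest library for the fibroblast list, at 0.28 log2 units above the mean over libraries, and for the choroid plexus list, at 1.2, and the part of these in the ratios was not tested.

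**Figure D3:**
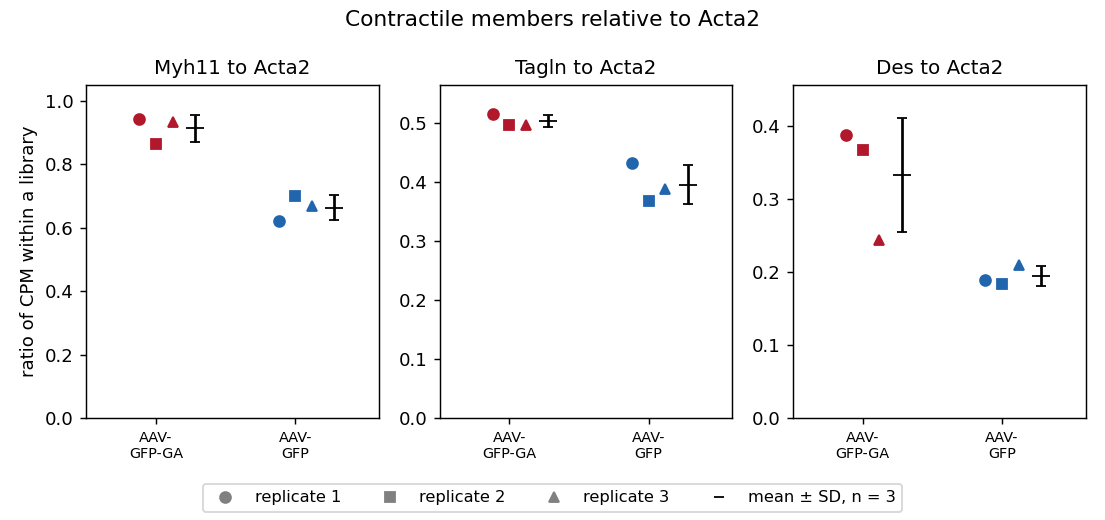
CPM of Myh11, Tagln and Des divided by the CPM of Acta2 in the same library (vertical axis, from 0), AAV-GFP-GA in red and AAV-GFP in blue, with mean ± SD (n = 3). In each panel all AAV-GFP-GA points lie above all AAV-GFP points, with means of 0.913 and 0.663 for Myh11, 0.503 and 0.395 for Tagln and 0.334 and 0.194 for Des.

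Other genes of the same cells were read from lists of textbook markers. Of 15 further pericyte markers, all tested, 0 passed the test, 1 had an unadjusted p under 0.05 and 10 had a log2 fold change above 0, with a median of 0.10. Mcam, an adhesion molecule, averaged 20.8 ± 1.56 CPM in AAV-GFP-GA and 18.5 ± 0.409 CPM in AAV-GFP, and Cspg4, the NG2 proteoglycan, averaged 20.2 ± 1.56 CPM in AAV-GFP-GA and 18.1 ± 0.919 CPM in AAV-GFP (SD, n = 3 each). The gene under the unadjusted threshold was Anpep, an aminopeptidase of pericytes and of the intestinal brush border, with 9.44, 10.8 and 14.2 CPM in AAV-GFP-GA and 5.62, 4.90 and 9.35 CPM in AAV-GFP (unadjusted p = 0.00569, edgeR adjusted p = 0.742). AAV-GFP replicate 3, the highest AAV-GFP library for Anpep, was also the one with most intestinal reads, and the part of those reads was not tested. Of 15 further smooth muscle markers 12 had enough reads, 0 passed, 5 were above 0 and the median was -0.02. Smtn, for the cytoskeletal protein smoothelin, had 7.67, 8.51 and 8.94 CPM in AAV-GFP-GA and 5.62, 6.10 and 7.39 CPM in AAV-GFP (unadjusted p = 0.0171, edgeR adjusted p = 0.742). Tpm1 and Cald1, widely expressed actin-binding genes, had log2 fold changes of -0.08 ± 0.06 and -0.08 ± 0.09 (SE). Cnn1 had 4, 6 and 4 reads in AAV-GFP-GA and 6, 2 and 3 in AAV-GFP, below the filter.

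Of the 18 genes of PDGF, TGF-beta and related signals that recruit mural cells, 0 passed, 0 had an unadjusted p under 0.05, 8 were above 0 and the median log2 fold change was -0.02. S1pr1, a sphingosine phosphate receptor of endothelium and glia, had a log2 fold change of 0.07 ± 0.06, and the cadherin gene Cdh2 one of 0.08 ± 0.07. Pdgfb, the ligand of PDGFRB, was named after its value was seen, at -0.01 ± 0.15. Of 10 regulators of the contractile genes 8 were tested and 1 was higher: Klf4, a factor known to repress contractile genes in smooth muscle that many other cells also express, which averaged 19.6 ± 1.98 CPM in AAV-GFP-GA and 8.65 ± 0.656 CPM in AAV-GFP (log2 fold change 1.18 ± 0.11, edgeR adjusted p = 0.00299). The median of this list was 0.10, and Myocd, for myocardin, was below the filter with 5, 2 and 2 reads in AAV-GFP-GA and 7, 3 and 3 in AAV-GFP. Of 14 genes of vascular tone 0 passed, with a median of 0.05. The abundant Itpr1, a calcium release channel, and Rgs4, a regulator of G protein signalling, both also neuronal, had log2 fold changes of 0.08 ± 0.07 and 0.03 ± 0.09. Ednra, the endothelin receptor of smooth muscle, had 5.84, 5.41 and 6.64 CPM in AAV-GFP-GA and 4.55, 4.72 and 4.56 CPM in AAV-GFP, an unadjusted p of 0.0264 and an edgeR adjusted p of 0.742. Of 9 integrins and other partners of vitronectin 0 passed, with a median of 0.11. The integrin subunits Itgav and Itgb1 had log2 fold changes of 0.11 ± 0.08 and 0.02 ± 0.07. Itgb5, an integrin subunit that pairs with alpha V to bind vitronectin, averaged 50.0 ± 3.67 CPM in AAV-GFP-GA and 42.1 ± 2.2 CPM in AAV-GFP (unadjusted p = 0.00796, edgeR adjusted p = 0.742). Plaur, the urokinase receptor, averaged 2.07 ± 0.504 CPM in AAV-GFP-GA and 1.07 ± 0.217 CPM in AAV-GFP (unadjusted p = 0.00584, edgeR adjusted p = 0.742).

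Endothelial genes, which come from the same vessels, were set beside the mural genes. Of 15 endothelial markers 0 passed the test and 14 were above 0, where 48.6% of all genes were above 0. By edgeR 5 had an unadjusted p under 0.05, all higher in AAV-GFP-GA, where 3.19% of all genes were. For 6 the groups did not overlap, with AAV-GFP-GA higher, beside 6.09% of all genes. The median log2 fold change was 0.20, beside 0.16 for the 6 pericyte genes. Mean deviations of log2 CPM were 0.13 in AAV-GFP-GA and -0.13 in AAV-GFP for endothelial genes, against 0.07 and -0.07 for pericyte genes. Tie1, a receptor kinase of endothelium, averaged 11.7 ± 1.71 CPM in AAV-GFP-GA and 7.16 ± 1.40 CPM in AAV-GFP (log2 fold change 0.71 ± 0.16, edgeR adjusted p = 0.684). Slc2a1 and Flt1, which were known to be high here when the list was written, had log2 fold changes of 0.48 ± 0.12 and 0.41 ± 0.08. The mean deviation of the 6 pericyte genes minus that of the endothelial genes was -0.09, -0.07 and -0.03 log2 units in AAV-GFP-GA libraries and -0.01, 0.18 and 0.01 in AAV-GFP libraries. This comparison was not planned in advance, and no test is given for it. Those groups did not overlap. Without Slc2a1 and Flt1 they did, and the difference between group means was -0.09 in place of -0.12. For the 15 further pericyte markers the same difference was -0.08, -0.09 and -0.05 in AAV-GFP-GA and 0.02, 0.11 and 0.09 in AAV-GFP. It kept the groups apart without Slc2a1 and Flt1. For the contractile genes it was -0.16, 0.14 and 0.01 in AAV-GFP-GA and 0.16, 0.11 and -0.25 in AAV-GFP, and the groups overlapped. All of these differences subtract the same endothelial values, so they are not independent of each other. Among single genes tested, 11.9% did not overlap between the groups in either direction. Of 10 fibroblast markers 0 passed, with a median of 0.02. Igf2 and Dcn, the most abundant, had log2 fold changes of -0.17 ± 0.19 and -0.11 ± 0.28, and the transporter gene Slc47a1 one of 0.68 ± 0.23 (unadjusted p = 0.0126, edgeR adjusted p = 0.742).

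**Figure D4:**
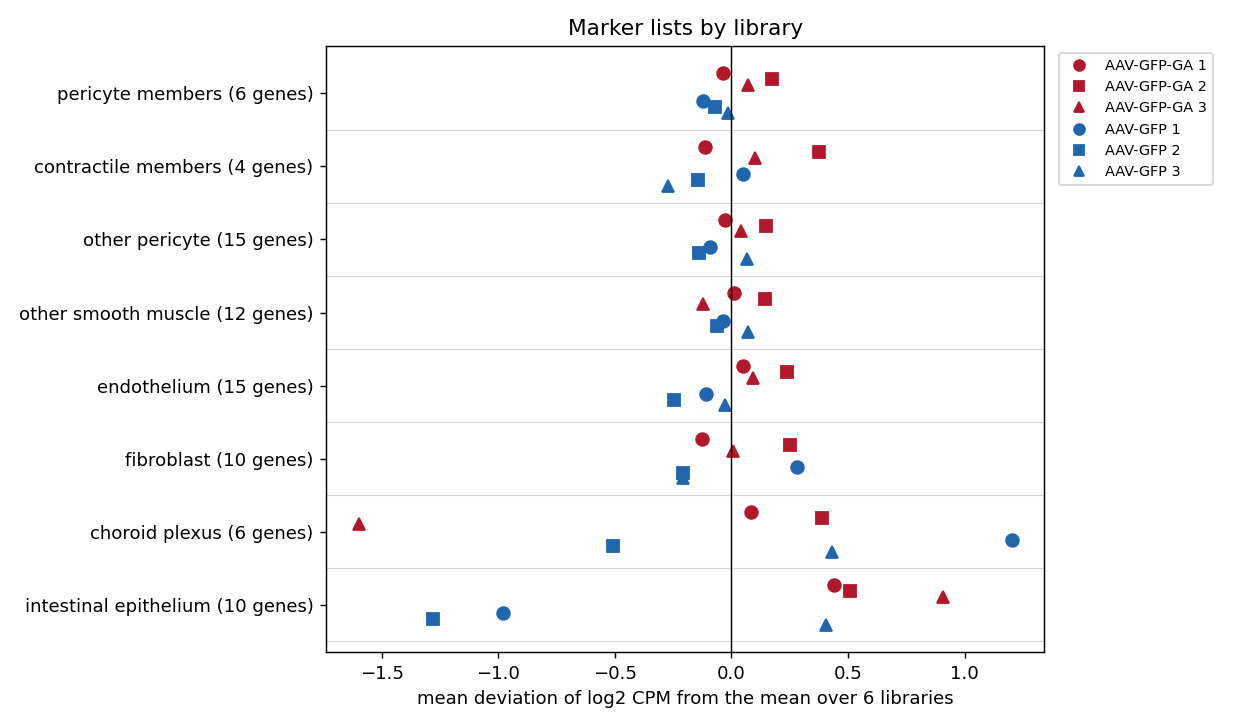
Mean deviation of log2 CPM from the mean over the 6 libraries (horizontal axis) for each list, AAV-GFP-GA in red above AAV-GFP in blue, with symbols for the replicate. AAV-GFP-GA replicate 2 is the highest library for the pericyte genes (0.17), the contractile genes (0.38) and the endothelial genes (0.24), and the intestinal list sets AAV-GFP replicates 1 and 2 apart.

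Per length of exon, the order of levels was nearly the same in both groups. Vtn was highest, at 39.2 ± 2.88 CPM per kb in AAV-GFP-GA and 32.9 ± 3.45 CPM per kb in AAV-GFP, and Rgs5 was next, at 26.8 ± 2.89 in AAV-GFP-GA and 26.0 ± 0.525 in AAV-GFP. Pdgfrb, Acta2 and Tagln followed in both groups, at 5.18, 3.67 and 2.35 CPM per kb in AAV-GFP-GA and 4.69, 4.0 and 2.03 CPM per kb in AAV-GFP. Kcnj8, Abcc9, Higd1b, Myh11 and Des came last, Des lowest at 0.815 ± 0.222 CPM per kb in AAV-GFP-GA and 0.521 ± 0.0453 CPM per kb in AAV-GFP. In this order neighbours whose libraries overlapped were Tagln and Kcnj8, Kcnj8 and Abcc9, Abcc9 and Higd1b, and Myh11 and Des in AAV-GFP-GA, and Pdgfrb and Acta2, Abcc9 and Kcnj8, and Kcnj8 and Higd1b in AAV-GFP. Among 13663 genes with a mean of at least 1 CPM, those whose profile over the 6 libraries was closest to the mean profile of the pericyte genes were Pstpip2, Marveld1 and Nde1, at root mean square differences of 0.0239, 0.0282 and 0.0288 log2 units. For the contractile genes they were Fyb, Mterf1b and Gbp9, at 0.0434, 0.0590 and 0.0612. The pericyte profile itself had a root mean square of 0.0968 log2 units, and 30 genes lay within 0.05 of it. The contractile profile had one of 0.209, and 1 gene lay within 0.05 of it.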

How the data were processed

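RNA of mouse cortex was extracted with Trizol and libraries followed the BGI standard protocol, per the labels' protocols. The authors deposited expected counts per gene, with no scaling to depth; this unit was read from the values, of which 7.32% to 7.81% per library were not whole. Bowtie2 2.2.5, RSEM 1.2.12 and build mm10 are named per the submitters' processing notes, without roles. The annotation and the strand setting were not given in the sources used here.

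The 1 row naming no gene was left out, and 25 symbols turned into dates were restored from gene identifiers. Counts were rounded and tested with edgeR 4.0.16 in R 4.3.3: filterByExpr, TMM scaling, the two-sided quasi-likelihood test with all 6 libraries, and Benjamini-Hochberg adjustment over the 14324 genes tested at 0.05. CPM used the scaled library sizes. DESeq2 1.42.0 and limma-voom (limma 3.58.1) were alternatives. Coordinates are from RefSeq, 1-based. The fits were also run on counts simulated with the same spread for every gene, unlike the real genes, and that outcome is not given here. The typical spread between replicates was 7.92% (biological coefficient of variation).

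The genes and lists were chosen with earlier results of these data known. The text names all 10 genes. Of each other list it describes, it names up to 4 genes past the threshold or, with none, the 2 of highest expression, and up to 3 with an unadjusted p under 0.05. It further names the 3 genes with the profiles most like each set.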

Additional observations from a re-analysis of the deposited data

How the results depend on the processing

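In all 13 alternatives, which changed the scaling, tool, filter, library set, replicate block or libraries, 0 of the 10 mural genes passed the adjusted threshold. The genes called over the whole table numbered 3. They numbered 10 with DESeq2 (9 higher, 1 lower), 9 with the library set term for AAV-GFP replicates 1 and 2, and between 2 and 72 when 1 library was left out: 72 without AAV-GFP replicate 3, and 5 without either AAV-GFP replicate 1 or replicate 3 of AAV-GFP-GA. The replicate block gave 2 genes and pericyte and contractile medians of 0.15 and 0.27. Deviations of same-numbered libraries had correlations of 0.101, -0.0983 and 0.0663, and 2 of 6 libraries correlated best with their own number. No pairing by number was visible in these values, and the labels give none.

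The pericyte median ranged between 0.08 and 0.21 and the contractile median between 0.17 and 0.47. Signs changed for 3 genes, none of which passed a test. With 1 library left out the log2 fold change lay between -0.032 and 0.125 for Rgs5, between -0.248 and 0.226 for Higd1b, and between -0.251 and 0.023 for Acta2. With the library set term it was 0.029 for Higd1b and 0.062 for Acta2. That term leaves AAV-GFP replicate 3, which also differs in Y-linked reads, as the only control. The values with that term compare 3 libraries with 1 and assume that the lone library varies like the others. The cause was not tested. The log2 fold change of Vtn lay between 0.15 and 0.31 and its adjusted p between 0.103 and 1.0, and that of Des between 0.41 and 0.80, with adjusted p between 0.277 and 1.0. The folds of the ratios to Acta2, over libraries left out after seeing the data, lay between 1.34 and 1.42 for Myh11, 1.23 and 1.33 for Tagln, and 1.57 and 1.95 for Des. The pericyte minus endothelial difference between groups, also not planned in advance, lay between -0.15 and -0.06, and -0.06 was without AAV-GFP replicate 2. With 15 to 57 reads per library, Higd1b and Des are limited by depth.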
